A study of Mus musculus with 10 samples.

Results

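Monocytes were a small population in droplet single-cell RNA libraries of spleen from BXD2 mice, a recombinant inbred strain that develops autoantibodies and spontaneous germinal centers. The study compared 3 p19-/- mice, in which the IL-23 subunit p19 is deleted (1 and 2 female, 3 male), with 2 female wild-type (WT) mice, all on the BXD2 background. Each mouse gave 1 RNA library and 1 B cell receptor (BCR) library. The labels name splenic B and T cells and give no age, so the monocytes lie outside the labelled cell types, and how they came into the libraries is not given in the sources used here. The cells were chosen by their own transcript counts. A cell was counted as a monocyte when it had at least 200 genes and at most 10% mitochondrial counts, at least 1 unique molecular identifier (UMI, 1 captured RNA molecule) each of the myeloid adaptors Tyrobp and Fcer1g, and at most 1 UMI of C1qa, C1qb and C1qc together. It also had to show at least 2 of the 5 genes Ace, Fn1, Tgfbi, Ccr2 and Ifitm3, and no UMI of Cd3e, Cd3d, Cd3g or Cd79a. Of 11355 barcodes, 9356 passed the filter and 144 of these met the rule: 35, 17 and 15 in p19-/- mice 1 to 3, and 54 and 23 in WT mice 1 and 2.

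Monocytes arise in the bone marrow, circulate in blood and are also held in a reservoir in the spleen. In mice, classical monocytes carry the surface protein Ly6C and the chemokine receptor Ccr2, leave the marrow through Ccr2 and enter inflamed tissue, where they can become macrophages or dendritic cells. Non-classical monocytes lose Ly6C, depend on the nuclear receptor Nr4a1 and patrol the inside of vessels with the help of Cx3cr1 and the integrin LFA-1, and Ace, the angiotensin-converting enzyme, marks them. IL-23 is made by myeloid cells and acts on lymphocytes that carry its receptor.

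The rule chose cells on 14 genes, so their values describe the selection. Ifitm3, an interferon-induced antiviral membrane protein, was present in all 144 cells. Tgfbi, an extracellular matrix protein, was present in 98 cells, Ace in 93, Ccr2 in 54 and Fn1, which encodes fibronectin, in 29. Of the 144 cells, 61 showed exactly 2 of the 5 genes, 43 showed 3, 33 showed 4 and 7 showed all 5. The 61 cells just inside the threshold had a median of 2230.0 UMIs, and 63.9% of them had Ace. The 44 cells just outside, with 1 of the 5 genes, had a median of 1708.5 UMIs, and 6.82% of them had Ace.

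Genes that the rule did not use set these cells apart from macrophages, B cells and T cells of the same spleens. Dendritic cells and neutrophils outside the rule were not compared. Lyz2, the lysozyme of myeloid cells, had a UMI in 91.0% of monocytes (median depth 3592.0 UMIs), 19.9% of the 266 macrophages (at least 3 C1q UMIs, median 1644.5), 0.306% of B cells (median 8118.0) and 0.816% of T cells (median 3578.0). In CPM, the UMIs of a gene per 1000000 UMIs summed over a mouse's cells of a class, Lyz2 stood at 12097 ± 2359.6 CPM in monocytes and 5707 ± 3695 CPM in the macrophages (SD over 5 mice). The macrophage genes went the other way. Vcam1, an adhesion molecule of red pulp macrophages, averaged 2.08 ± 4.66 CPM in monocytes and 3962 ± 939 CPM in the macrophages, and the iron exporter Slc40a1 averaged 20.8 ± 15.2 CPM in monocytes and 1745 ± 730.4 CPM in the macrophages. For both, the highest monocyte value lay below the lowest macrophage value. Csf1r, the receptor for the growth factor CSF1, was present in both classes, at 745 ± 171 CPM in monocytes and 1947 ± 309 CPM in the macrophages, and the same held for Treml4 at 294 ± 152 CPM in monocytes and 354 ± 92.1 CPM in the macrophages and for Adgre4 at 246 ± 105 CPM in monocytes and 372 ± 111 CPM in the macrophages. Igkc, the kappa light chain, had a UMI in 7.64% of monocytes and 94.4% of B cells. Ighm, the IgM heavy chain, was more frequent. It had a UMI in 13 of 68 monocytes with Ace but no Ccr2 or Fn1, and in 18 of 32 with Ccr2 or Fn1 but no Ace. Among monocytes with both it was in 6 of 25, and among those with neither in 7 of 19. The source of this RNA was not tested. None of the 144 monocytes had a BCR contig, against 42.9% to 60.4% of all passing cells by mouse. The rule left out cells with Cd79a, so this contrast was partly set by the selection.

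**Figure D1:**
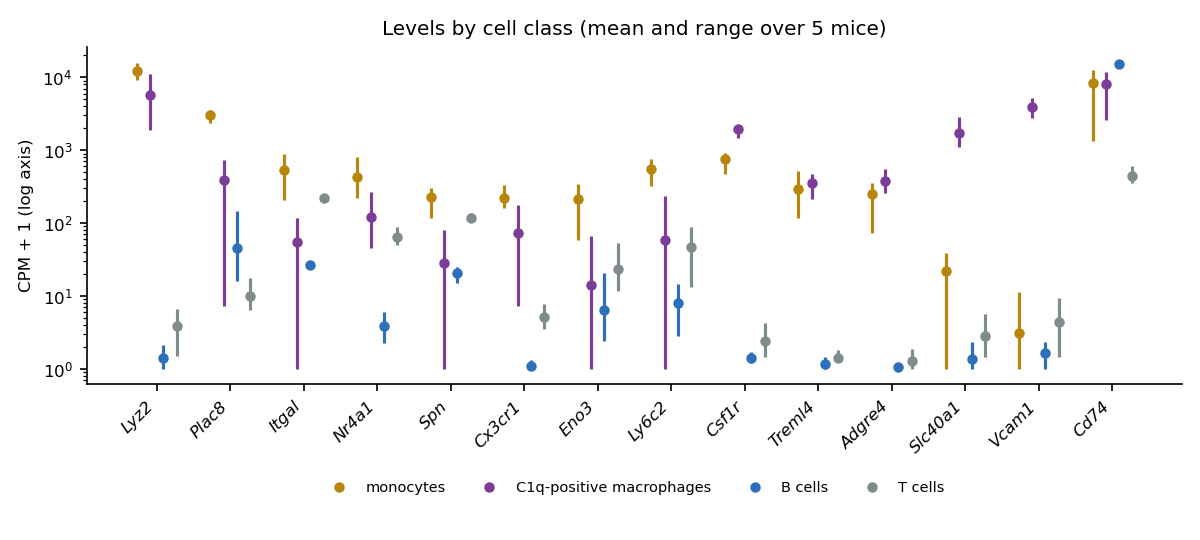
Levels of 14 genes in monocytes, C1q-positive macrophages, B cells and T cells, as CPM + 1 on a log axis. Points are means over the 5 mice and lines run from the lowest to the highest mouse. Lyz2, Plac8, Itgal and Nr4a1 averaged more in monocytes than in macrophages, Slc40a1 and Vcam1 averaged more in macrophages, and Cd74 was high in all classes but T cells.

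Some cells inside the rule also carried genes of other cell types. In all, 10 cells had both S100a8 and Retnlg, genes of neutrophils, and lay 3, 2 and 1 in p19-/- mice and 3 and 1 in WT mice. They had no Ly6c2, and all were among the cells with neither Ace nor Ccr2 nor Fn1. Dendritic cell genes (at least 2 of 13) were found in 16 cells, 3, 1 and 2 in p19-/- mice and 5 and 5 in WT mice, of which 13 had at least 20 UMIs of MHC class II genes. Primary granule genes (at least 2 of Mpo, Elane, Prtn3 and Ctsg), which are transcribed in marrow progenitors, were found in 6 cells, 0, 1 and 0 in p19-/- mice and 2 and 3 in WT mice. All 6 had Ly6c2 and 4 were in cycle by at least 4 of 8 proliferation genes. The remaining 113 cells (78.5%) showed none of these. By list, the neutrophil genes summed to 501 to 7469 CPM in p19-/- mice and 1313 to 2346 CPM in WT mice, with Ltf, Camp, Ngp and Ly6g at 0. The 13 dendritic cell genes summed to 151 to 447 CPM in p19-/- mice and 361 to 620.1 CPM in WT mice, with Xcr1 and Siglech at 0. The 11 red pulp macrophage genes summed to 203 to 411 CPM in p19-/- mice and 167 to 263 CPM in WT mice, with Cd5l and Mertk at 0. The part of these genes in the results was tested only by leaving out the cells that carry them. The 8 natural killer genes and the 7 basophil and mast cell genes were at 0 in every library. At least 2 genes of some other-type list were seen in 81 of the 144 cells, so results are also given without such cells where they differ.

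Libraries were unequal in size. Passing cells numbered 1567, 951 and 2354 in p19-/- mice and 2791 and 1693 in WT mice, and the monocytes' summed counts ran from 73863 to 205034 UMIs per mouse. WT mouse 2 had the deepest monocytes, with a median of 7729 UMIs per cell, against 2797 to 4004 in the other 4 mice. Between 1 and 9 barcodes were shared by each of the 10 pairs of libraries, 47 in all, and none of these was a monocyte.

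Ace and the pair Ccr2 and Fn1 divided the monocytes. Ace without Ccr2 or Fn1 was seen in 68 cells (47.2%), called Ace-positive here, and Ccr2 or Fn1 without Ace in 32 cells (22.2%). A further 25 cells had both and 19 had neither. The Ace-positive cells had a median of 2747.5 UMIs and the Ccr2 or Fn1 positive cells 8530.5 UMIs, so counts were compared as CPM of sums per mouse. The smaller class rests on 5, 2 and 3 cells in p19-/- mice and 13 and 9 cells in WT mice. As counted above, 17 of these 32 cells were free of neutrophil, dendritic and granule genes, against 67 of the 68 Ace-positive cells. The 17 lay 3, 0 and 3 in p19-/- mice and 8 and 3 in WT mice. No fit was made on these 17 and 67 cells alone. In edgeR's quasi-likelihood F test with the mouse as a block, 207 of 881 genes (23.5%) differed at a Benjamini-Hochberg adjusted p under 0.05: 136 (15.4%) were higher in Ace-positive cells and 71 (8.06%) were lower. Of these, 123 and 53 differed in the same direction in all 5 mice. The count was 116 without p19-/- mouse 1, 78 without WT mouse 1, 108 without WT mouse 2, 79 with at least 3 of the 5 selecting genes and no C1q UMI, 80 without cells carrying other-type genes, and 129 without the 6 granule cells. Of the 78 genes called without WT mouse 1, all 78 were among the 207, and of the 80 called without other-type cells, 71 were.

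**Figure D2:**
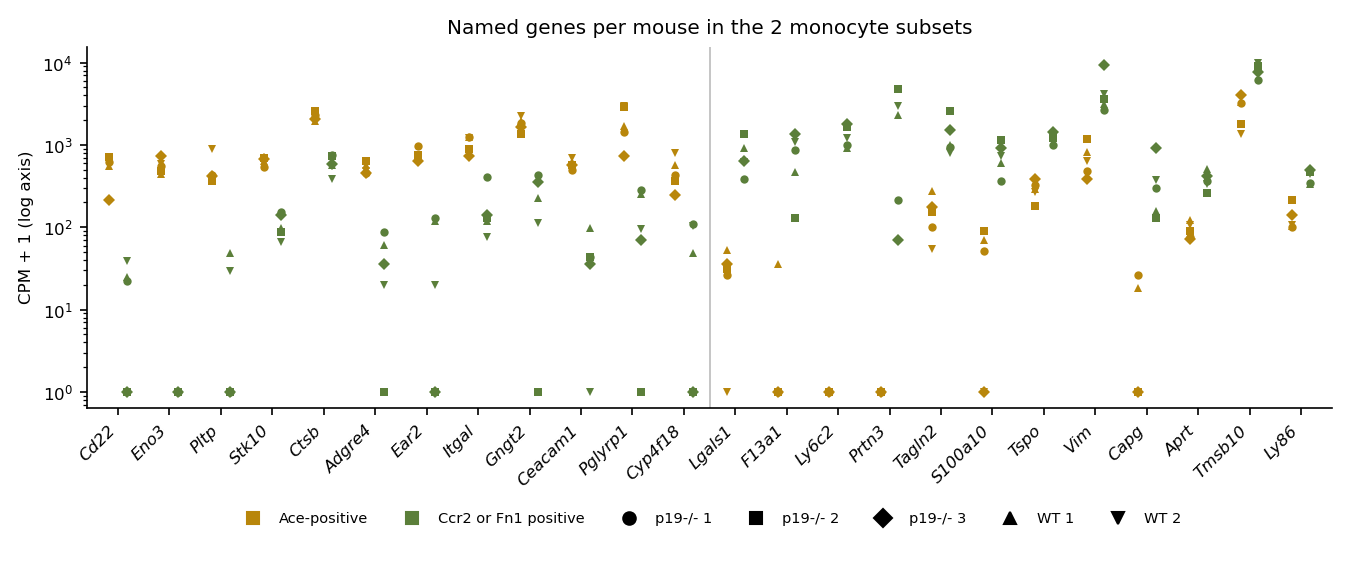
CPM + 1 (log axis) of the 24 genes named by the rule, in Ace-positive (left of each pair) and Ccr2 or Fn1 positive monocytes (right of each pair), 1 marker shape per mouse. The 12 genes left of the line were higher in Ace-positive cells of all 5 mice, and the 12 right of it were lower in all 5.

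Most tested genes of the non-classical list rose in Ace-positive cells. Of the 25 list members, 19 could be tested and 18 of these rose, against 15.4% of all 881 genes tested, with a median log2 fold change of 2.74, against -0.03 over all genes. Without WT mouse 1 the count was 11 of 17, against 42 of all 619 genes tested. Without WT mouse 2 it was 12 of 18, against 66 of all 808. Eno3, a glycolytic enolase best known from muscle (chr11:70653125-70662513, GRCm38), showed the clearest split. It stood at 550.3, 481, 738, 448 and 581 CPM in Ace-positive cells of p19-/- mice 1 to 3 and WT mice 1 and 2. In Ccr2 or Fn1 positive cells it gave 0 UMIs in every mouse, against 118 UMIs in Ace-positive cells, which is at least 52.0-fold higher by a floor of 3 counts over the class. It was present in 41 of 68 Ace-positive cells, and 0 of 32 allows a share of up to 9.38% of cells with a UMI by a floor of 3 counts, which covers counting error only and does not limit the share of cells expressing the gene. Adgre4, an adhesion G protein-coupled receptor related to F4/80, averaged 517 ± 80.2 CPM in Ace-positive and 39.9 ± 33.9 CPM in Ccr2 or Fn1 positive cells (log2 fold change 3.47, SE 0.43, adjusted p = 0.000152). Nr4a1, the transcription factor on which non-classical monocytes depend, averaged 775 ± 317 CPM in Ace-positive and 186 ± 179 CPM in Ccr2 or Fn1 positive cells (log2 fold change 2.17, SE 0.37, adjusted p = 0.00165). It was higher in Ace-positive cells of all 5 mice. Pou2f2, a POU-domain transcription factor, also rose (log2 fold change 2.49, SE 0.37, adjusted p = 0.000579), as did Treml4, a receptor that binds dying cells (log2 fold change 2.74, SE 0.49, adjusted p = 0.00208), and Spn, the surface sialoglycoprotein CD43 (log2 fold change 2.67, SE 0.44, adjusted p = 0.00139).

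Of the 19 chemokine receptor and adhesion genes, 9 were tested and 7 rose in Ace-positive cells, against 15.4% of all genes tested, with none lower past the threshold (median log2 fold change 1.27). Itgal, the alpha chain of LFA-1, stood at 1238, 903, 738, 1242 and 1214 CPM in Ace-positive cells of p19-/- mice 1 to 3 and WT mice 1 and 2, against 408, 129, 139.6, 119.7 and 74.9 CPM in their Ccr2 or Fn1 positive cells (log2 fold change 2.76, SE 0.35, adjusted p = 0.00017). The subsets did not overlap. Cx3cr1, the receptor for fractalkine, averaged 356 ± 109 CPM in Ace-positive and 139 ± 94.1 CPM in Ccr2 or Fn1 positive cells (log2 fold change 1.49, SE 0.35, adjusted p = 0.00973), and this call was lost without WT mouse 1 and without WT mouse 2. Pecam1, an endothelial and leukocyte adhesion molecule, rose by 3.95 on the log2 scale (adjusted p = 0.00933), a call lost without p19-/- mouse 1 or WT mouse 2. Of 11 Fc receptor genes, 8 were tested and 3 rose, also to be read against the 15.4% of all genes. Fcgr4, an activating IgG receptor, averaged 404 ± 215 CPM in Ace-positive and 21.9 ± 24.7 CPM in Ccr2 or Fn1 positive cells (log2 fold change 3.58, SE 0.51, adjusted p = 0.000457).

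The remaining genes named as higher in Ace-positive cells had varied roles. Gngt2, a G protein gamma subunit, averaged 1807 ± 325 CPM in Ace-positive and 224 ± 174 CPM in Ccr2 or Fn1 positive cells (log2 fold change 3.12, SE 0.43, adjusted p = 0.000317). Pglyrp1, which binds bacterial peptidoglycan, averaged 1959 ± 982 CPM in Ace-positive and 139 ± 121 CPM in Ccr2 or Fn1 positive cells (log2 fold change 3.65, SE 0.50, adjusted p = 0.000317). Ear2, a ribonuclease of a family of near-identical genes whose counts are therefore uncertain, averaged 759 ± 126 CPM in Ace-positive and 53.5 ± 65.2 CPM in Ccr2 or Fn1 positive cells. Ctsb, the lysosomal protease cathepsin B, averaged 2232 ± 251.3 CPM in Ace-positive and 604 ± 148 CPM in Ccr2 or Fn1 positive cells (log2 fold change 1.89, SE 0.23, adjusted p = 0.000152). Ceacam1, Pltp, Cyp4f18 and Stk10 rose as well, by 3.71, 4.40, 3.02 and 2.54 on the log2 scale. Pltp moves phospholipids between lipoproteins, and Cyp4f18 inactivates leukotriene B4 in mouse leukocytes. Fabp4, a fatty acid binding protein, gave 81 UMIs in Ace-positive cells and 0 in Ccr2 or Fn1 positive cells.

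Cd22, an inhibitory receptor that binds sialic acid and is best known from B cells, was also higher in Ace-positive monocytes. It was present in 52 of 68 Ace-positive and 6 of 32 Ccr2 or Fn1 positive cells, and stood at 625.4, 722, 211, 552 and 686 CPM in the Ace-positive cells of the 5 mice, against 21.5, 0, 0, 23.9 and 37.5 CPM in their Ccr2 or Fn1 positive cells (log2 fold change 4.53, SE 0.42, adjusted p = 4.4e-05). The other 7 genes of the B cell list did not share that pattern: they summed to 23 UMIs (105 CPM) in Ace-positive and 48 UMIs (166 CPM) in Ccr2 or Fn1 positive cells. Ighd and Ebf1 were at 0, and Cd79a was at 0 by the rule. No Ace-positive cell had a BCR contig, but the rule had already left out cells with Cd79a, so this is no separate check.

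Of the 18 genes of the classical list 11 were tested and 5 fell in Ace-positive cells, against 8.06% of all genes tested, while 1 rose. The number that fell was 3 of 9 without p19-/- mouse 1, against 43 of all 610 genes tested. It was 3 of 10 without WT mouse 1, against 36 of all 619, and 8 of 13 without p19-/- mouse 2, against 84 of all 1091. Over the 11 genes the median log2 fold change was -1.50. Ly6c2, which encodes the Ly6C antigen (chr15:75108161-75112066, GRCm38), gave 0 UMIs in the 68 Ace-positive cells and 343 UMIs in Ccr2 or Fn1 positive cells, which is at least 86.5-fold lower in Ace-positive cells. By mouse, the Ccr2 or Fn1 positive cells held 1010.4, 1671, 1780.2, 922 and 1208 CPM. It was present in 26 of 32 of them, and 0 of 68 allows up to 4.41% of Ace-positive cells with a UMI by the same floor. Of the 25 cells with both Ace and Ccr2 or Fn1, 7 had Ly6c2. F13a1, the catalytic chain of coagulation factor XIII, averaged 6.90 ± 15.4 CPM in Ace-positive and 779 ± 489 CPM in Ccr2 or Fn1 positive cells (log2 fold change -5.95, SE 0.59, adjusted p = 4.4e-05). Vcan, the proteoglycan versican, gave 0 UMIs in Ace-positive and 22 in Ccr2 or Fn1 positive cells and was too low for the test. S100a6, a calcium-binding protein, fell by 1.71 on the log2 scale (adjusted p = 0.00353). Ms4a4c fell too (log2 fold change -2.30, SE 0.66, adjusted p = 0.0239), a call lost without either WT mouse. Klf4, a transcription factor on the classical list, rose instead (log2 fold change 1.79, SE 0.55, adjusted p = 0.0351), in 4 of 5 mice, a call lost when any mouse but p19-/- mouse 2 was left out and without the granule cells. Plac8 (-0.23, adjusted p = 0.43) and Lyz2 (-0.89, adjusted p = 0.39) did not pass the test.

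The other genes named as lower in Ace-positive cells had varied roles. Vim, the intermediate filament vimentin, averaged 702 ± 312 CPM in Ace-positive and 4605 ± 2771 CPM in Ccr2 or Fn1 positive cells (log2 fold change -2.58, SE 0.36, adjusted p = 0.000346). Lgals1, the sugar-binding galectin-1, averaged 28.4 ± 18.8 CPM in Ace-positive and 787 ± 377 CPM in Ccr2 or Fn1 positive cells (log2 fold change -4.43, SE 0.38, adjusted p = 4.14e-05). Tagln2 and Capg, which bind actin filaments, and Tmsb10, which binds actin monomers, fell by 3.04, 4.35 and 1.64 on the log2 scale. S100a10, the partner of annexin A2, fell by 3.70. Tspo, a protein of the outer mitochondrial membrane, and Aprt, an enzyme of purine salvage, were present in all 32 Ccr2 or Fn1 positive cells and in 40 and 17 of 68 Ace-positive cells. Ly86, the partner of the Toll-like receptor relative RP105, averaged 132 ± 46.9 CPM in Ace-positive and 416 ± 71.9 CPM in Ccr2 or Fn1 positive cells.

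Prtn3, the granule protease proteinase 3, gave 0 UMIs in Ace-positive and 633 UMIs in Ccr2 or Fn1 positive cells, at least 160-fold lower in Ace-positive cells. The values in Ccr2 or Fn1 positive cells were uneven, at 215, 4799, 69.8, 2310.2 and 2959.8 CPM, and 13 of the 32 cells had it. Mpo, Elane and Ctsg, other granule genes chosen here after their values were seen, were found in 5, 3 and 4 of the 32 cells with 264, 490 and 71 UMIs, and in none of the 68 Ace-positive cells. The proliferation gene Ube2c, also chosen after its values were seen, was in 9 of 32 and 0 of 68. The 6 granule cells had a median of 12457.5 UMIs. Among the 113 cells without neutrophil, dendritic or granule genes, Ly6c2 was in 16 of 17 Ccr2 or Fn1 positive and 0 of 67 Ace-positive cells.

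Promoters are shown for 3 of these genes that moved in opposite directions between the subsets, because each holds the letters of a PU.1-type site. PU.1, encoded by Spi1, is a transcription factor of all monocytes, and the letters searched were GAGGAAGT on either strand (ACTTCCTC). Sequences are RefSeq windows of GRCm38.p6 from 250 bases before to 50 bases after the annotated start, 5′ to 3′ on the gene's strand, with the matches in capitals. Adgre4 (chr17:55749734-55750033, plus strand) had 1 match, Ly6c2 (chr15:75111922-75112221, minus strand) had 2 matches, and Prtn3 (chr10:79879417-79879716, plus strand) had 1 match. The Ly6c2 window was set on a start inside the gene span given above, not on the end of that span at 75112066.
Adgre4: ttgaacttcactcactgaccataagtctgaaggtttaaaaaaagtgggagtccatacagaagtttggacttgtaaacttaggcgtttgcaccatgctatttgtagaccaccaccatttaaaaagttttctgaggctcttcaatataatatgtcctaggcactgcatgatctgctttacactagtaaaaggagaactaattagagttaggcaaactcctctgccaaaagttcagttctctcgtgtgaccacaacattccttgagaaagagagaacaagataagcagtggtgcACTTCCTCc
Ly6c2: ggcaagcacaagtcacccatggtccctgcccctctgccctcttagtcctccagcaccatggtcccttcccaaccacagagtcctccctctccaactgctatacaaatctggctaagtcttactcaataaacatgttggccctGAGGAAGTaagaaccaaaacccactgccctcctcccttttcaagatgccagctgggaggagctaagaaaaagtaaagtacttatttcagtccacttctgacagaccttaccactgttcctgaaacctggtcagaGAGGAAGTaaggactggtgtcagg
Prtn3: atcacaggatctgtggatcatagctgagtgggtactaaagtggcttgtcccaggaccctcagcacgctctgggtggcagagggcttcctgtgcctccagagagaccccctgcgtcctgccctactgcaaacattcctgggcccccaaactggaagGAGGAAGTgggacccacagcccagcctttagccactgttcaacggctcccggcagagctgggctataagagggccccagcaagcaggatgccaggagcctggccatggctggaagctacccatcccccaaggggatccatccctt
The matches started 41 bases after the start in Adgre4, 108 bases before and 26 bases after it in Ly6c2, and 95 bases before it in Prtn3. Of the 12 genes named as higher in Ace-positive cells 9 had a window and 1 held the letters. Of the 12 named as lower 9 had a window and 3 held them, F13a1 being the third. Among all 32851 windows 3.2% did. The letters AAAGGTCA, a site for Nr4a1, were in 1.51% of all windows and in none of those of the named genes.

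Antigen presentation genes did not keep 1 direction. Of 14 MHC class II presentation genes, 7 were tested, 3 were lower in Ace-positive cells, against 8.06% of all genes tested, and none was higher. The number lower was 0 of 7 without p19-/- mouse 1, against 43 of all 610 genes tested. It was 0 of 6 without WT mouse 1, against 36 of all 619, and 6 of 7 without p19-/- mouse 3, against 115 of all 1106. H2-DMa and H2-DMb1, which load peptides onto class II molecules, fell by 1.53 and 2.37 on the log2 scale (adjusted p = 0.0123 and 0.0139), H2-DMa losing the call without p19-/- mouse 1 or WT mouse 1 and H2-DMb1 without p19-/- mouse 1 or WT mouse 2. Cd74, the class II invariant chain, stood at 1601, 933, 16507, 2691 and 1320.0 CPM in Ace-positive cells of p19-/- mice 1 to 3 and WT mice 1 and 2, against 8556, 2913, 5096, 12616 and 10003 CPM in Ccr2 or Fn1 positive cells (log2 fold change -1.64, SE 0.54, adjusted p = 0.0435). It was lower in Ace-positive cells of 4 mice and higher in p19-/- mouse 3, and only the omission of p19-/- mouse 3, among the 5 mice, left the call in place. Its direction turned when the 16 cells with dendritic genes were left out (log2 fold change 1.94, adjusted p = 0.044) and when all cells with other-type genes were (4.79, adjusted p = 1.03e-08). Of those 16 cells, 10 were Ccr2 or Fn1 positive and 1 was Ace-positive.

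Among 22 genes of the IL-23 and IL-17 axis, 9 were tested and 2 rose in Ace-positive cells, near the 15.4% of all genes tested and so no result about the list. They were Il17ra, a subunit of the IL-17 receptor (log2 fold change 1.57, SE 0.36, adjusted p = 0.00828), and Il10ra, the ligand-binding chain of the IL-10 receptor (log2 fold change 1.22, SE 0.34, adjusted p = 0.0216). Il17ra lost the call without either WT mouse, and Il10ra without any of the mice other than p19-/- mouse 2. Il17ra was present in 39 of 68 Ace-positive and 19 of 32 Ccr2 or Fn1 positive cells (57.4% and 59.4%), at the lower depth of the Ace-positive cells. Of 17 monocyte transcription factors 9 were tested and 5 rose, against 15.4% of all genes tested. Irf8, which directs monocyte and dendritic cell fate, fell (log2 fold change -1.27, SE 0.43, adjusted p = 0.046), a call lost without WT mouse 2, without the granule cells and in DESeq2. Of 21 type I interferon genes 3 were tested and 1 fell, against 8.06% of all genes tested. It was Bst2, the virus-tethering protein tetherin (log2 fold change -2.19, SE 0.46, adjusted p = 0.00533). None of the 2 interferon gamma genes and 7 glycolysis genes tested passed.

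The share of monocytes overlapped between the genotypes. They were 2.23%, 1.79% and 0.637% of cells in p19-/- mice, against 1.93% and 1.36% in WT mice, or 1.55 ± 0.824% and 1.65 ± 0.407% (SD, n = 3 and 2). The difference was -0.0939 points (two-sided exact permutation test, p = 1). Its sign turned without p19-/- mouse 3 (0.364 points) and without WT mouse 1 (0.194 points). Set against the macrophages of the same libraries, there were 53.8, 41.5 and 57.7 monocytes per 100 macrophages in p19-/- mice and 60.0 and 52.3 in WT mice. With 3 mice against 2 the smallest two-sided p is 0.2, so no difference of shares could pass 0.05.

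Among cells of the 2 subsets, Ace-positive cells were 22 of 27, 9 of 11 and 7 of 10 in p19-/- mice and 24 of 37 and 6 of 15 in WT mice. That is 81.5%, 81.8% and 70.0%, against 64.9% and 40.0%, or 77.8 ± 6.73% in p19-/- and 52.4 ± 17.6% in WT mice. All 3 p19-/- mice lay above both WT mice, a difference of 25.3 points. Ace, Ccr2 and Fn1 are among the selecting genes, so these shares are a description and no test is given. The exact (Clopper-Pearson) 95% intervals, which cover counting error only, overlapped between each p19-/- mouse and both WT mice. Counted another way, as all cells with Ace, with or without Ccr2 or Fn1, over all monocytes, the shares overlapped: 25 of 35, 12 of 17 and 8 of 15 in p19-/- mice and 36 of 54 and 12 of 23 in WT mice, a difference of 5.70 points. The monocytes of WT mouse 2 were the deepest. In the 113 cells with at least 2000 UMIs, thinned to 2000, the difference was 19.2 points. This leaves out 31 shallower cells, 7, 5 and 2 in p19-/- mice and 14 and 3 in WT mice, in which the part of depth was not tested. Over all cells of the 2 subsets the difference was 12.9 points without WT mouse 2, and without the dendritic-gene and granule cells it was 14.1 points with overlapping groups. Without cells carrying other-type genes it was 23.2 points, at 100%, 100% and 75.0% in p19-/- mice against 76.9% and 60.0% in WT mice. Those groups overlapped, as did the groups without dendritic-gene cells alone (20.2 points).

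**Figure D3:**
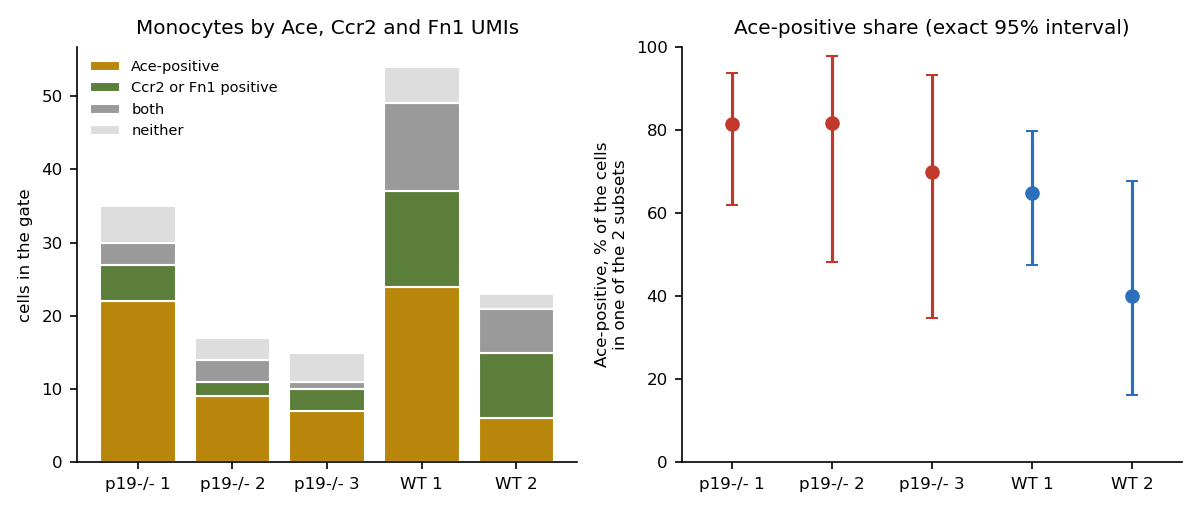
Left, monocytes per mouse by the UMIs of Ace, Ccr2 and Fn1, as stacked counts of cells. Right, Ace-positive cells as a percentage of the Ace-positive and the Ccr2 or Fn1 positive cells, with exact 95% intervals, p19-/- mice in red and WT mice in blue. The p19-/- mice lay at 70.0% to 81.8% and the WT mice at 40.0% and 64.9%.

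No gene passed the test between the genotypes in summed monocytes. Of 2606 genes tested with edgeR's quasi-likelihood F test, 0 (0%) passed an adjusted p of 0.05, the lowest adjusted p being 0.217. At an unadjusted p under 0.05 there were 194 (7.44%), 127 higher and 67 lower in p19-/- mice, and DESeq2 also called 0, with 70 unadjusted. The count was 7 without p19-/- mouse 2, 2 without p19-/- mouse 3, 40 without WT mouse 1 and 1 without WT mouse 2. It was 35 with no filter on low counts, 11 with sex as a covariate, and 4 without cells carrying other-type genes. Those 4 were Ly6c2, Mpo, Elane and Prtn3, all lower in p19-/- mice. Sex cannot be told apart from p19-/- mouse 3, the only male.

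No gene of the non-classical list passed the test by genotype in the fit of 2606 genes. Of 25 members 22 were tested, and all 22 had a log2 fold change above 0, with a median of 0.67, against 50.8% above 0 and a median of 0.01 over all 2606 genes. In 8 of the 22 the p19-/- mice did not overlap the WT mice, which held for 21.8% of all genes tested. Eno3 stood at 345, 214 and 311 CPM in p19-/- mice, against 137 and 57.3 CPM in WT mice, the groups being separate (log2 fold change 1.59, SE 0.38, adjusted p = 0.217). Cd300e, an activating receptor of non-classical monocytes, stood at 146, 113 and 40.6 CPM in p19-/- mice, against 29.3 and 10.4 CPM in WT mice (log2 fold change 2.36, SE 0.64, adjusted p = 0.31). With sex as a covariate it passed (log2 fold change 2.68, adjusted p = 0.0386), as the only 1 of 24 members tested. With no filter on low counts 3 of 24 members passed. Of all genes in these fits, 8 of 3436 and 14 of 11256 were called higher. Ear2 stood at 596, 491 and 582 CPM in p19-/- mice, against 337 and 93.8 CPM in WT mice, again without overlap (log2 fold change 1.37, SE 0.39, adjusted p = 0.344). Other members lay closer: Nr4a1 averaged 490.1 ± 284 CPM in p19-/- and 322 ± 145 CPM in WT mice (log2 fold change 0.66, SE 0.39, adjusted p = 0.746), Cx3cr1 243 ± 74.0 CPM in p19-/- and 178 ± 23.7 CPM in WT mice (adjusted p = 0.804), and Csf1r 779 ± 78.3 CPM in p19-/- and 693 ± 309.6 CPM in WT mice (adjusted p = 0.933).

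In a sum over all monocytes, more cells of a subset and more RNA per cell cannot be told apart. In the 68 Ace-positive cells alone 18 members of the same list were tested, 4 of them lay above 0, and the median log2 fold change was -0.29, against 0.05 over the 563 genes tested. Eno3 had a log2 fold change of 0.28, Ear2 of 0.18, Adgre4 of -0.03 and Nr4a1 of -0.30 in that fit, and none passed. Leaving out the granule cells kept 22 of 22 members above 0 (median 0.57), as did leaving out the dendritic-gene cells (0.56). Without WT mouse 2, 19 of 23 lay above 0, with a median of 0.32, and without WT mouse 1, 23 of 23 did, with a median of 1.17. The 18 classical members gave no like pattern: 15 were tested, 6 lay above 0 and the median was -0.15, which became 0.30 (10 of 15 above 0) without WT mouse 2. Ly6c2 stood at 318, 579 and 690.5 CPM in p19-/- mice, against 395 and 745 CPM in WT mice, with overlapping groups (log2 fold change -0.15, SE 0.34, adjusted p = 0.962). Without cells carrying other-type genes it was called lower in p19-/- mice (log2 fold change -5.11). There 2 of 9 classical members tested lay above 0, and Ace-positive cells were 100% of the subset cells in p19-/- mice 1 and 2.

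**Figure D4:**
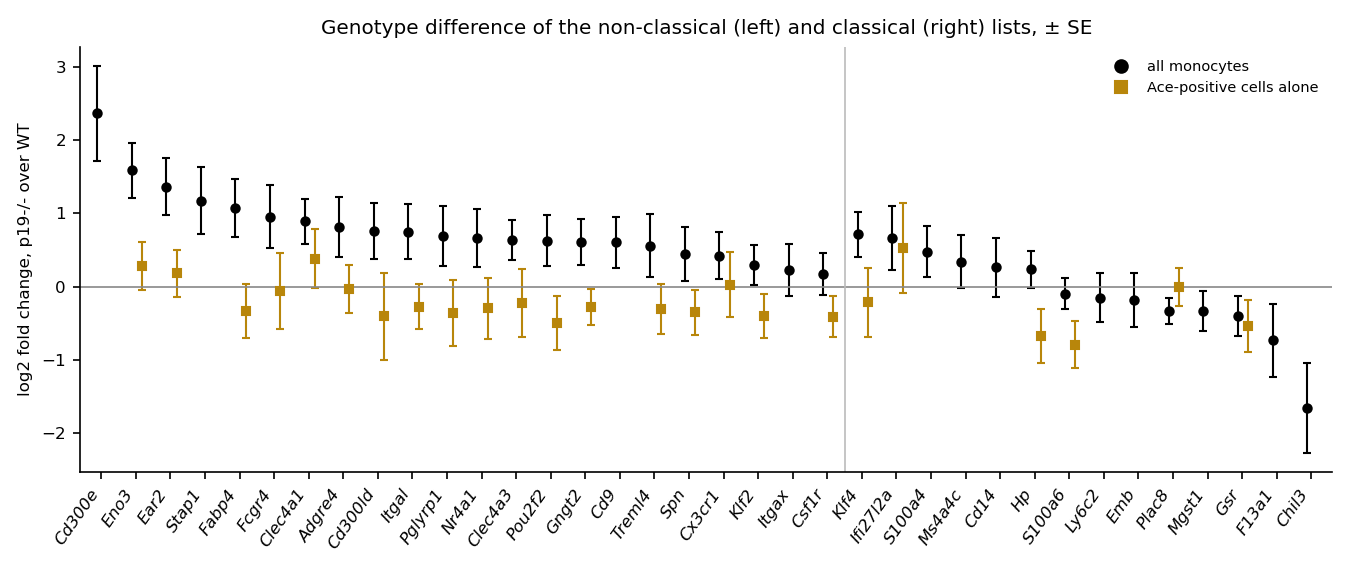
Log2 fold change (p19-/- over WT) with its SE for the tested members of the non-classical list (left of the line) and classical list (right of it, 1 member not drawn), in all monocytes (black) and in Ace-positive cells alone (gold). All 22 non-classical members lay above 0 in all monocytes, and 4 of 18 did in Ace-positive cells alone.

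Some genes with the lowest p-values by genotype are named here after their values were seen, and none passed the test in the fit of 2606 genes. Ube2c, which drives the exit from mitosis, stood at 13.3, 25.2 and 0 CPM in p19-/- mice, against 73.2 and 281 CPM in WT mice (log2 fold change -3.66, SE 0.75, adjusted p = 0.217). Mki67, the marker of cycling cells, stood at 13.3, 37.8 and 13.5 CPM in p19-/- mice, against 68.3 and 208 CPM in WT mice (log2 fold change -2.74, SE 0.65, adjusted p = 0.217). WT mouse 2 was the highest for both, and without it both genes were too low for the test. Cells in cycle numbered 1 of 35, 1 of 17 and 0 of 15 in p19-/- mice and 2 of 54 and 3 of 23 in WT mice. The shares overlapped between the genotypes. Of the 7 cells, 6 were Ccr2 or Fn1 positive. Ube2c and Mki67 are among the 8 proliferation genes that define these cells, so the count is no separate result. Retnlg, a neutrophil gene, stood at 510.2, 390.4 and 54.2 CPM in p19-/- mice, against 87.8 and 36.5 CPM in WT mice (log2 fold change 2.41, SE 0.58, adjusted p = 0.217), with overlap between the genotypes, and it was too low for the test once the 10 cells with S100a8 and Retnlg were left out. Bcl2a1d, a survival gene of a family of near-identical copies whose counts are uncertain, stood at 239, 139 and 94.8 CPM in p19-/- mice, against 53.6 and 31.3 CPM in WT mice (log2 fold change 1.96, SE 0.46, adjusted p = 0.217). Ctsb stood at 1716, 1763 and 1570.5 CPM in p19-/- mice, against 1068 and 651 CPM in WT mice (log2 fold change 0.97, SE 0.23, adjusted p = 0.217). In Ace-positive cells alone its log2 fold change was 0.21.

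Further lists held no call by genotype in the fit of 2606 genes. With sex as a covariate, 2 of 11 MHC class II genes were called lower in p19-/- mice, Cd74 (log2 fold change -1.82) and H2-Ab1 (-2.05). In that fit 3 of 6 neutrophil genes and 1 of 10 survival genes, Bcl2a1d, were called higher. Of all 3436 genes there, 8 were higher and 3 lower. In the fit of 2606 genes, all 9 survival genes tested of 13 had a log2 fold change above 0 (median 0.88), against 50.8% of all genes. Of the 9, 3 did not overlap, against 21.8% of all genes. Without WT mouse 2, 6 of 8 lay above 0, with a median of 0.51. Among the 3 was Mcl1, which blocks cell death, at 656, 428 and 514 CPM in p19-/- mice, against 322 and 224 CPM in WT mice (log2 fold change 0.98, SE 0.29, adjusted p = 0.355). All 8 heat shock chaperones tested of 15 had a log2 fold change above 0 (median 0.68), with 5 not overlapping, against the same shares of all genes. Without WT mouse 1 the median was 0.48, with 7 of 8 above 0. Hsp90aa1 stood at 398, 390.4 and 433 CPM in p19-/- mice, against 239 and 177 CPM in WT mice (adjusted p = 0.358). Of 14 MHC class II presentation genes 10 were tested and 9 lay below 0 (median -0.78), where 50.8% of all genes lay above 0. The median ran from -1.85 without p19-/- mouse 3 to -0.38 without p19-/- mouse 2. In Ace-positive cells alone the 4 genes tested lay above 0, with a median of 1.87, against 54.4% above 0 among all 563 genes tested. There Cd74 was uneven, at 16507 CPM in the 7 Ace-positive cells of p19-/- mouse 3 and 933 to 2691 CPM in the other mice. For the invariant chain the p19-/- mice spanned the WT values: Cd74 stood at 4949, 1348 and 12645 CPM in p19-/- mice, against 10052 and 12637 CPM in WT mice (log2 fold change -0.84, SE 0.49, adjusted p = 0.746). Of 21 type I interferon genes 6 were tested and 4 lay above 0 (median 0.52), against 50.8% of all genes. Il17ra stood at 318, 214 and 162 CPM in p19-/- mice, against 161 and 182 CPM in WT mice, and the inflammatory cytokine Il1b at 484, 340.1 and 217 CPM in p19-/- mice, against 551 and 99.0 CPM in WT mice, both with overlap. Lyz2 averaged 12113 ± 3336 CPM in p19-/- and 12072 ± 76.7 CPM in WT mice, a log2 fold change of 0.00 (SE 0.17).

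Some genes were too low for the test. Stab2, a scavenger receptor gene on chromosome 10, gave 0 UMIs in p19-/- monocytes and 19 in WT monocytes (0, 0 and 0 against 29.3 and 67.7 CPM), at least 4.85-fold lower in p19-/- monocytes by a floor of 3 counts over the 3 mice. Spp1, which encodes osteopontin, gave 0 UMIs in monocytes of every mouse. The interferon-induced GTPase gene Gbp8 gave 1 UMI in p19-/- and 2 in WT monocytes, and Gbp9 gave 6 in p19-/- and 1 in WT monocytes. Il12b, the subunit that IL-23 shares with IL-12, gave 2 UMIs in p19-/- and 0 in WT monocytes, and Il23a, which encodes p19, gave 0 in all 144 monocytes, so the deletion could not be checked in these cells. Tnf gave 9 UMIs in p19-/- and 4 in WT monocytes, and Tnfsf13b, the B cell survival factor BAFF, gave 2 in p19-/- and 1 in WT monocytes.

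The genotype difference in monocytes was set against that in the 266 C1q-positive macrophages, 65, 41 and 26 in p19-/- mice and 90 and 44 in WT mice. In the macrophages alone 6 of 2064 genes (0.291%) differed by genotype, all 6 higher in p19-/- mice (0.291%), and 213 (10.3%) had an unadjusted p under 0.05. The interaction passed for 7 of 2970 genes (0.236%) with the mouse as a block, 1 positive (0.0337%) and 6 negative (0.202%), with 238 (8.01%) at an unadjusted p under 0.05. Cd74 averaged 6314 ± 5771 CPM in p19-/- and 11344 ± 1828 CPM in WT monocytes, and 11135 ± 832 CPM in p19-/- and 3543 ± 1363 CPM in WT macrophages (difference of log2 fold changes -3.08, SE 0.58, adjusted p = 0.0291). Lyz2 averaged 12113 ± 3336 CPM in p19-/- and 12072 ± 76.7 CPM in WT monocytes, and 7984 ± 2775 CPM in p19-/- and 2291 ± 557 CPM in WT macrophages (difference of log2 fold changes -1.89, SE 0.35, adjusted p = 0.0291). For these genes the monocyte values overlapped between genotypes, and the macrophage values did not. Ms4a6c, a membrane protein of myeloid cells, followed them (difference of log2 fold changes -2.30, SE 0.42, adjusted p = 0.0291), as did Vim (difference of log2 fold changes -2.40, SE 0.45, adjusted p = 0.0291). Tmsb10 had a difference of -1.15 and Rplp0, a ribosomal protein, of -1.37. Malat1, a nuclear non-coding RNA, had the opposite sign (difference of log2 fold changes 1.23, SE 0.18, adjusted p = 0.00866): its p19-/- monocytes lay above and its p19-/- macrophages below the WT values. In the macrophage sums too, more cells with a gene and more RNA per cell cannot be told apart. Lyz2 had a UMI in only a minority of the macrophages, as given above. None of the 7 passed without p19-/- mouse 1, WT mouse 1 or WT mouse 2, and Tmsb10 was also lost without p19-/- mouse 3. The count was 37 without p19-/- mouse 2, 15 without p19-/- mouse 3 and 29 with no filter on low counts.

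**Figure D5:**
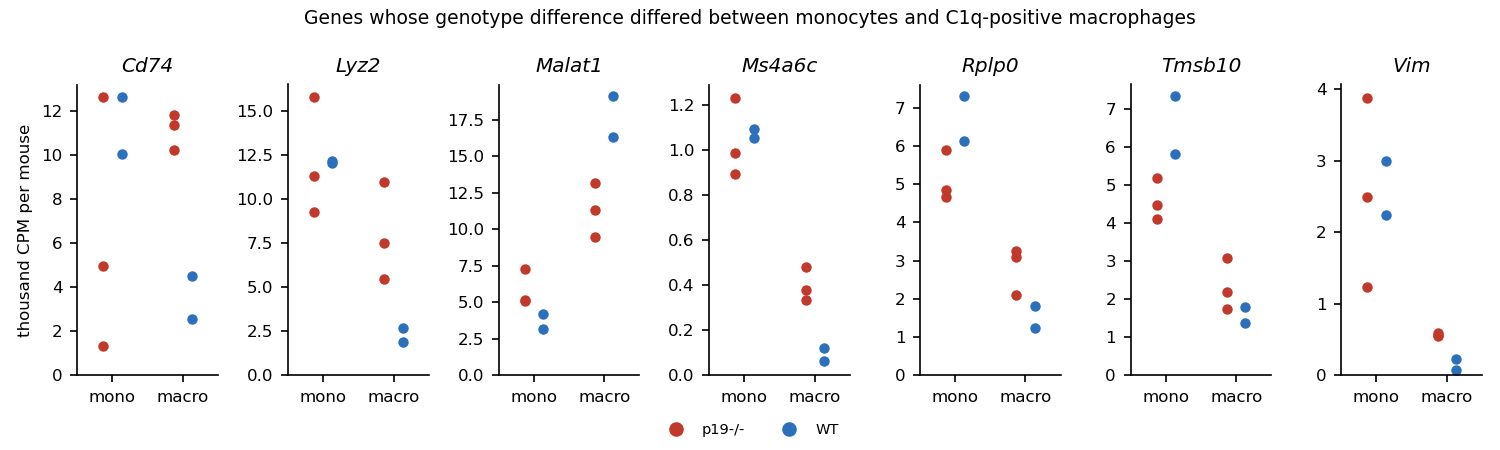
CPM divided by 1000, per mouse, in monocytes (mono) and C1q-positive macrophages (macro) for the 7 genes of the interaction, p19-/- mice in red to the left of WT mice in blue. Macrophage Lyz2, Cd74, Ms4a6c and Vim lay higher in all 3 p19-/- mice than in both WT mice, while their monocyte values overlapped.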

How the data were processed

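The submitters' processing notes name Cell Ranger 3.0.2, STAR and the build mm10. The authors deposited, for each RNA library, filtered barcodes and a matrix of UMI counts per gene, not normalized, and BCR contig tables, used here only for whether a barcode had a contig. The members and gene lists were chosen with earlier results of these data known. The labels number 1 spleen per mouse within each genotype, and RNA libraries held 7712457 to 18093053 UMIs.

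Cells passed with at least 200 genes and at most 10% mitochondrial UMIs. The 14 selecting genes were kept in totals and left out of tests. Counts were summed per mouse, and per subset or cell type, and tested in edgeR 4.0.16 (R 4.3.3) by its quasi-likelihood F test (TMM, filterByExpr), with p-values adjusted over all genes tested (Benjamini-Hochberg, 0.05). Standard errors were taken from the fold change and F statistic. The monocyte share was compared by an exact permutation test over the 10 splits of mice, and the Ace-positive share, built from selecting genes, is given with no test. CPM are per 1000000 summed UMIs. Doublets were not removed: Scrublet (scanpy 1.11.5) marked 28 of 9356 cells, too few to have worked, and no monocyte. Named genes had an adjusted p under 0.05, at least 20 CPM in the higher group and 1 direction in every mouse (or no overlap of genotypes), up to 12 per direction by adjusted p, leaving out receptor segments, ribosomal, mitochondrial, Xist and Y-linked genes, beside a fixed list of key genes and up to 4 examples per list by lowest p. Results for some genes are not reported here. Of 426 genes looked up in RefSeq (GRCm38.p6), 425 matched. Alternatives were DESeq2 1.42.0 (Wald test or size factors), no filter, leaving out each mouse, stricter cells, other subset limits, sex and replicate number. Leaving out neutrophil-gene, dendritic-gene or granule cells, Ace-positive cells alone, and the share of all cells with Ace were chosen after seeing the data. The fits were tested on simulated counts with 200 changed genes. Of 2-fold and 4-fold changes the genotype fit recovered 20.8% and 75.6%, the subset fit 43.2% and 100%, and the interaction fit 0% and 13.0%. Intervals and floors (3 counts) cover counting error only.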

Additional observations from a re-analysis of the deposited data

Results flagged for a closer look

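Among 75 sets of 5 mice examined for the named and key genes, 6 held 1 mouse far from the other 4, where chance gives about 1 in 20. Pltp was at 898 CPM in Ace-positive cells of WT mouse 2, against 361 to 425 CPM in the others. In Ccr2 or Fn1 positive cells of p19-/- mouse 1, Itgal was at 408 CPM (others 74.9 to 139.6), Treml4 at 322 CPM (others 0 to 56.2) and Nr4a1 at 494 CPM (others 42.8 to 168). That class holds 5 cells in this mouse. Vim was at 9459.6 CPM in the 3 such cells of p19-/- mouse 3 (others 2687 to 4177). Cd74 was at 16507 CPM in the 7 Ace-positive cells of p19-/- mouse 3 (others 933 to 2691).

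The genotype difference itself differed between monocytes and macrophages for 7 genes, by the interaction term. The differences of log2 fold changes were -2.40 for Vim, -1.37 for Rplp0, -1.15 for Tmsb10, -1.89 for Lyz2, -3.08 for Cd74, 1.23 for Malat1 and -2.30 for Ms4a6c. The median depth was 3592.0 UMIs per monocyte and 1644.5 UMIs per macrophage, and its part in these differences was not tested.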

How the results depend on the processing

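The number of genes called between subsets, 207, was 209 with DESeq2 size factors, 261 with no filter, 164 with DESeq2, 175 with at least 2 Ace UMIs, 193 with Ccr2 alone, and 158 without dendritic-gene cells. It was 78 to 266 when 1 mouse was left out, 79 with the stricter cells, 80 without cells of other-type genes, and 129 without granule cells, and for these the cause was not tested. Turned directions among the genes followed, counted where either fit passed, were Cd74 (1.94 without dendritic-gene cells, 4.79 without other-type cells), H2-Aa (5.83) and Hspa8 (0.47), the last pair without other-type cells. By genotype the count of 0 became 35 with no filter, 4 without other-type cells, 11 with sex, and 0 to 40 when 1 mouse was left out. For the interaction, 7 became 6 with DESeq2 size factors, 29 with no filter, and 0 to 37 when 1 mouse was left out. The difference in the share of monocytes ran from -0.434 to 0.364 points when 1 mouse was left out, and the Ace-positive difference from 12.9 to 37.8 points. Counting all cells with Ace over all monocytes, that difference was 5.70 points. The replicate number was taken to pair no animals, since the labels number the mice within each genotype. Deviations of same-numbered mice correlated at 0.218 and 0.0733 over genes. For p19-/- mouse 1 with WT mouse 2 the value was -0.218, and for p19-/- mouse 2 with WT mouse 1 it was -0.0733. With 2 WT mice their deviations are mirror images, so these values cannot decide whether the number pairs animals. With the number as a replicate block 4 genes were called by genotype (p19-/- mouse 3 has no partner), and with no replicate block 138 were called between subsets. The subset comparison rests on few cells, since Ccr2 or Fn1 positive cells number 2 to 13 per mouse. The part of depth in the calls was not tested.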
